A study of Mus musculus with 2 samples.

Results

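The phosphoinositide 4-kinases and phosphatidylinositol phosphate (PIP) kinases were followed through kidney RNA of mice lacking *Cnnm2*, a gene for a magnesium-handling membrane protein of the distal tubule. The members are the 10 genes whose array names are *Pi4k2a*, *Pi4k2b*, *Pi4ka*, *Pi4kb*, *Pip5k1a*, *Pip5k1b*, *Pip5k1c*, *Pip4k2a*, *Pip4k2b* and *Pip4k2c*, with every probe that carries one of these names. They have 13 probes of the 39416 on the array, and 10 of its 31821 gene names. The family was selected on the log2 ratio of knockout over control in these same arrays, that of *Pi4k2b* above all, so the ratios between the genotypes are given as a description and without a test.

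The knockout genotype was Cnnm2fl/fl;Six2-Cre and the control genotype Cnnm2+/+;Six2-Cre, and the mice were 2 months old. Both genotypes carry Six2-Cre, a transgene that expresses Cre, fused to GFP, in the kidney of the embryo, where *Six2* marks the progenitors of the nephron epithelium. The RNA is that of dissected kidney, so cells outside the Six2 lineage are also in it, and fewer cells of a type cannot be told apart from less RNA per cell. The study asked which expression changes accompany the lower blood pressure of *Cnnm2*-deficient mice. The 2 colours of array 1 were Cy5 for the knockout and Cy3 for the control, and array 2 had them exchanged. How many mice stand behind an RNA sample, and whether the same RNA was put on both arrays, is not given in the sources used here. Both arrays together were therefore taken as a single replicate per genotype, and each SD below is that of the 2 arrays.

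Phosphatidylinositol is phosphorylated stepwise on its inositol ring. The PI 4-kinases make phosphatidylinositol 4-phosphate (PI4P), which identifies membranes of the Golgi, endosomes and cell surface, and the type I PIP kinases convert it to PIP2, the lipid that phospholipase C cleaves and that many channels and transporters of the kidney tubule need. The type II PIP kinases make the same PIP2 from a different precursor, phosphatidylinositol 5-phosphate.

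*Cnnm2* itself, the deleted gene, had log2 ratios of knockout over control of -2.88 on array 1 and -2.46 on array 2, a mean of -2.67 ± 0.30 (SD of the arrays), as the dye labels require. A gene was tested where its brightest probe was well above background, by the call of the scanner software, on both arrays for at least 1 of the genotypes, which left 19707 genes. Across these genes the log2 ratios of the 2 arrays had a Pearson correlation of -0.51, where genes are not independent replicates, and the sign of the ratio was shared by both arrays for 27.7% of them. The difference between the arrays divided by 2, which holds what differs between the dyes, had an SD of 0.40 over genes against 0.23 for their mean ratio. For most genes the arrays therefore differed by more than the genotypes did, and the value on each array is given beside every mean. Markers of proximal tubule, thick ascending limb, principal cells, intercalated cells, podocytes and endothelium all met this limit in the kidney RNA, as did all 4 of distal convoluted tubule and all 4 of urothelium.

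The probes are 60 bases long, and the first 30 bases of the 6 probes on which the comparisons below turn are given 5′ to 3′ with their positions on the mm9 build. *Pi4k2b* is shown as the gene with the largest ratio and *Pi4kb* as the one with the lowest mean ratio, and the pairs of *Pip5k1a* and *Pip5k1c* are shown because their probes differ. No base is marked.
Pi4k2b, chr5:53159457-53159516, plus strand: gagcggacagtgatagtaaagcaactatac
Pi4kb, chr3:94810432-94810491, plus strand: tagccatggggaaatttcttaccctgatcc
Pip5k1a, brighter probe, chr3:94863495-94863535, minus strand: ttctatagctgaatatttttccagaccccc
Pip5k1a, dimmer probe, chr3:94874749-94874808, minus strand: tatgaaatatgacctgaagggttcaactta
Pip5k1c, brighter probe, chr10:80777803-80777862, plus strand: ctcagagcctgccagccaggcctcagatga
Pip5k1c, dimmer probe, chr10:80774398-80774457, plus strand: attccagcagtgaatgggcgcggggagcga

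The accession that the files pair with each of the 13 probes belongs to the same gene in RefSeq (GRCm38.p6, used for names only). Whether a probe lies in a coding exon or in an untranslated region was not analysed here. The file gives the brighter *Pip5k1a* probe a span of 41 bases on the genome, shorter than the probe. No probe of a member shared a run of more than 19 bases with a probe of another gene name, and that longest run was between *Pi4k2b* and *Gm8903*. Among the members themselves the longest shared run was 11 bases.

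**Figure D1:**
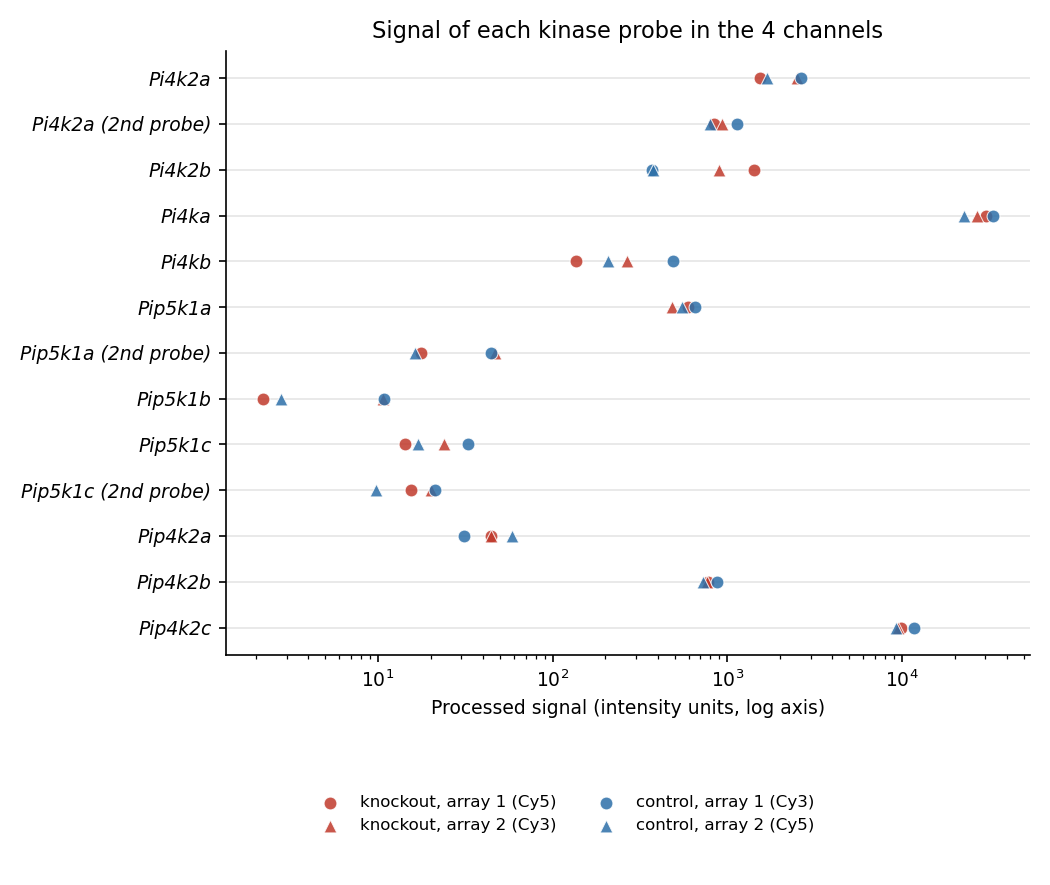
Processed signal (intensity units, log axis) of the 13 probes in the 4 channels, with the knockout in red, the control in blue, array 1 as circles and array 2 as triangles; probes are not comparable with each other in level. For *Pi4k2b* both knockout signals, 1422 and 896, lie above both control signals, 369 and 377, and for every other probe the colours overlap.

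The type II PI 4-kinases, *Pi4k2a* and *Pi4k2b*, are membrane-associated enzymes of endosomes and the trans-Golgi network. *Pi4k2b* had a processed signal of 1422 in the knockout and 369 in the control on array 1, and of 896 and 377 on array 2. Both knockout channels were above both control channels, and the control signals nearly coincided although they were measured in different dyes. The log2 ratios were 1.94 and 1.25, a mean of 1.60 ± 0.49 (SD of the arrays), or 3.02-fold. Of the 19707 genes tested, 11 had a higher mean log2 ratio.

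*Pi4k2b* was the 1 member of the 9 tested that counted as higher, by a mean log2 ratio of at least 1 with the same direction on both arrays, a rule that 0.315% of all genes met. It was at least 2-fold higher on each array, as were 0.142% of all genes. It was also 1 of 9 members whose knockout signals were both above the control signals, against 5.88% of all genes, and 0 of 9 had both below, against 5.41%. The SD of the mean ratio over the 4097 genes within 1 log2 unit of its brightness was 0.18. That of the difference between the arrays divided by 2 was 0.39. Repeated spots of other probes at this brightness had an SD of 0.034 on each array, which is a spread within an array and not between mice. As the family was selected on the ratio of *Pi4k2b*, none of these SDs tests that ratio. *Pi4k2b* has a single probe with 1 spot, so no other probe on the array bears on its ratio.

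The sister enzyme *Pi4k2a* did not share this pattern. Its brighter probe had signals of 1535 in the knockout and 2643 in the control on array 1, and of 2500 and 1696 on array 2. The genotypes changed places between the arrays, with log2 ratios of -0.78 and 0.56 and a mean of -0.11 ± 0.95. The second probe, 438 bases away on chromosome 19, had signals of 840 and 1144 on array 1 and of 933 and 797 on array 2. It gave -0.45 and 0.23, again with opposite signs and the same mean of -0.11 (SD 0.48).

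The type III PI 4-kinases are *Pi4ka*, which supplies PI4P at the plasma membrane, and *Pi4kb*, which acts at the Golgi. *Pi4ka* had signals of 30417 in the knockout and 33321 in the control on array 1, and of 26838 and 22676 on array 2. Its log2 ratios of -0.13 and 0.24 had a mean of 0.06 ± 0.26, with the genotypes overlapping. *Pi4kb* had signals of 136 in the knockout and 486 in the control on array 1, but of 266 and 207 on array 2. The lower level in the knockout was thus seen on array 1 and not on array 2. The log2 ratios were -1.84 and 0.37, and the mean was -0.74 ± 1.56, the lowest of any member. This mean was below that of all but 151 of the genes tested, but only 1.85% of genes had a larger difference between the arrays. *Pi4kb* did not meet the rule for a change.

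**Figure D2:**
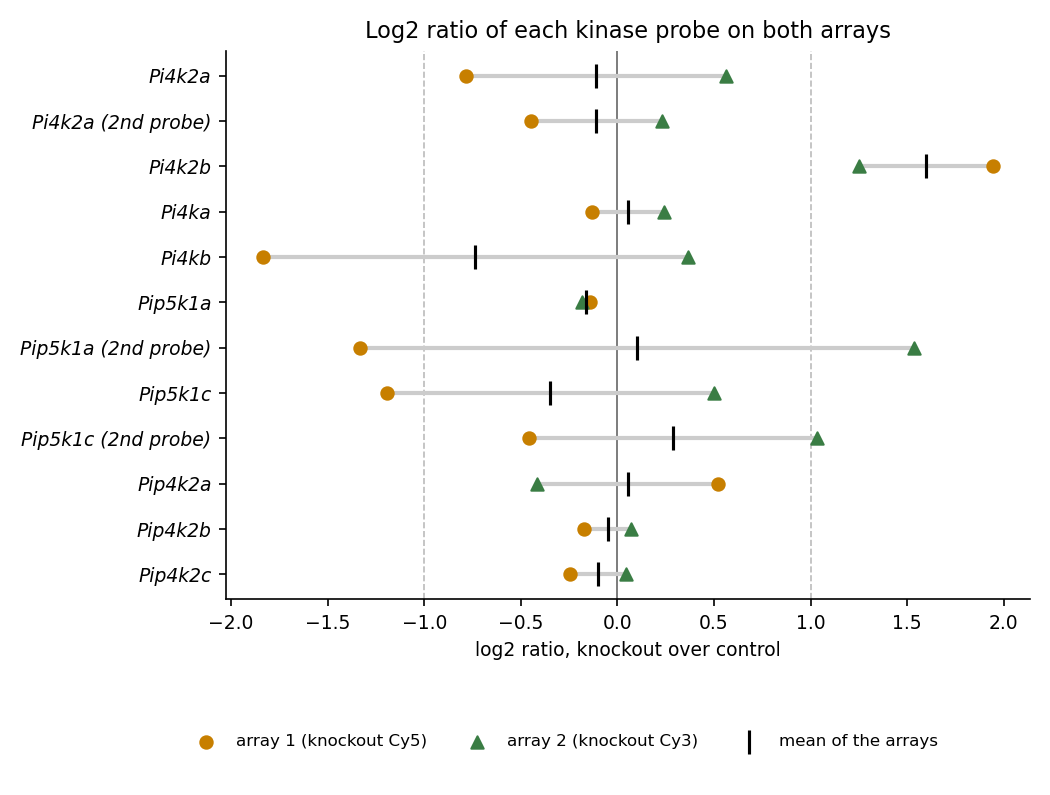
Log2 ratio of knockout over control for the 12 probes above background, on array 1 (orange circles), array 2 (green triangles) and as their mean (black bars); dashed lines mark log2 ratios of -1 and 1. Only *Pi4k2b* and the brighter *Pip5k1a* probe have both arrays on the same side of 0, and *Pi4k2b* alone lies beyond 1 on both.

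The type I PIP kinases make most of the PIP2 of the plasma membrane, and *Pip5k1c* is also known for its binding to talin at adhesion sites. The brighter *Pip5k1a* probe had signals of 594 in the knockout and 656 in the control on array 1, and of 485 and 550 on array 2. The knockout was the lower on each array, by a small and similar amount: the log2 ratios were -0.14 and -0.18, with a mean of -0.16 ± 0.03. The dimmer *Pip5k1a* probe, 11254 bases away, had signals of 17.6 and 44.3 on array 1 and of 47.0 and 16.2 on array 2. On this probe the Cy3 channel was the higher on both arrays whichever genotype it held, and the log2 ratios of -1.33 and 1.54 had a mean of 0.10 ± 2.03. Its signal before background subtraction was 1.77 to 3.40 times the local background, against 17.0 to 23.0 times for the brighter probe.

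The *Pip5k1c* probes were dim as well. The brighter had signals of 14.2 in the knockout and 32.6 in the control on array 1, and of 23.9 and 16.9 on array 2, with log2 ratios of -1.19 and 0.50 and a mean of -0.35 ± 1.20. The other, 3405 bases away, had signals of 15.4 and 21.2 on array 1 and of 20.0 and 9.77 on array 2, with log2 ratios of -0.46 and 1.03 and a mean of 0.29 ± 1.06. The means of the 2 probes had opposite signs, each was smaller than the SD of its arrays, so no direction is given for *Pip5k1c*. *Pip5k1b* was not well above background in any channel: its signals were 2.18 in the knockout and 10.8 in the control on array 1, and 10.6 and 2.77 on array 2. It was not tested, and no fold is given.

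The type II PIP kinases had mean log2 ratios between -0.10 and 0.05. *Pip4k2b* had signals of 772 in the knockout and 869 in the control on array 1, and of 762 and 726 on array 2, with a mean log2 ratio of -0.05 ± 0.17. *Pip4k2c*, the member of this group known for its low catalytic activity, had signals of 9918 and 11742 on array 1 and of 9492 and 9214 on array 2, with a mean of -0.10 ± 0.20. Both were bright, and their genotypes overlapped. *Pip4k2a* was dim, with signals of 44.4 in the knockout and 31.0 in the control on array 1 and of 44.1 and 58.8 on array 2. The log2 ratios of 0.52 and -0.42 had a mean of 0.05 ± 0.66.

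Over the family, 0 of 9 members counted as lower, a call that 0.284% of all genes received. The same direction on both arrays was seen for 2 of 9 members, *Pi4k2b* and *Pip5k1a*, against 27.7% of all genes. The 8 members other than *Pi4k2b* had mean log2 ratios from -0.74 to 0.06 with a median of -0.11. The median of all 9 was -0.10, and that of all genes tested was -0.0081. On array 1, 7 of the 9 members were lower in the knockout, and on array 2, 7 of the 9 were higher. The member medians were -0.17 on array 1 and 0.24 on array 2, against 0.0075 and -0.035 for all genes tested.

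**Figure D3:**
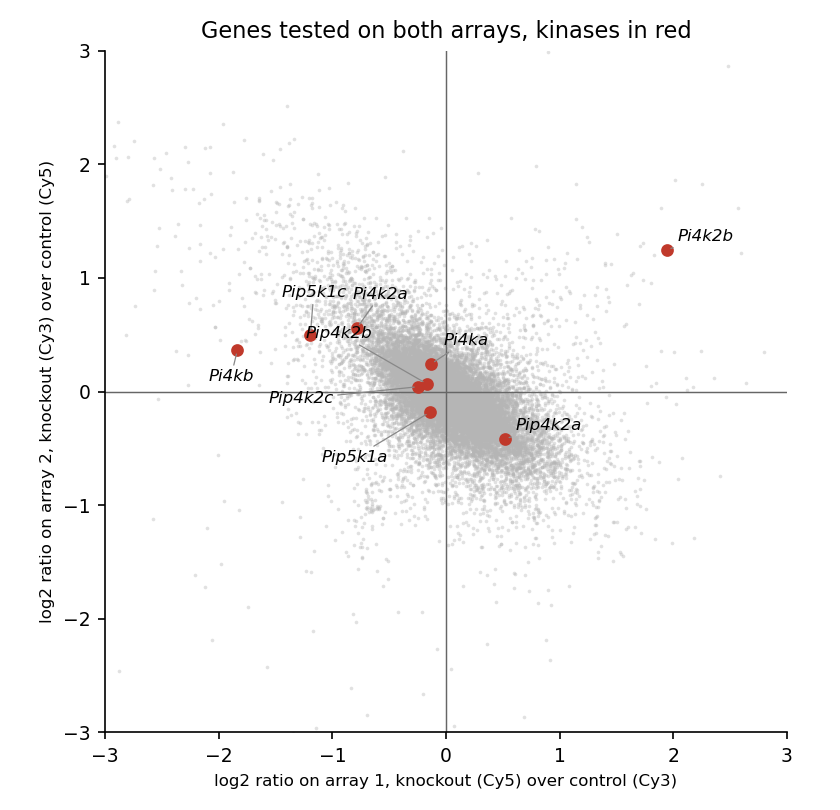
Log2 ratio of knockout over control on array 1 (horizontal) and array 2 (vertical) for the 19707 genes tested (grey) and the 9 kinases (red); 25 genes lie beyond the axis limits of -3 and 3. The grey cloud runs from upper left to lower right, with a correlation of -0.51, and *Pi4k2b* at 1.94 and 1.25 lies outside it.

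As the arrays carried opposite dyes, the knockout was also compared with the control in the same dye, which sets a channel of one array against a channel of the other. Each of these ratios was centred on the median of all genes tested, which was 0.21 within Cy5 and -0.22 within Cy3 before centring. This way of comparing was chosen after the values were seen, and it uses the same 4 signals, so that a gene's mean is the same up to the centring and is no further evidence. *Pi4k2b* had centred log2 ratios of 1.71 within Cy5 and 1.50 within Cy3, closer to each other (SD 0.14) than its 2 arrays. *Pi4kb* had -0.81 within Cy5 and -0.64 within Cy3 (SD 0.12), in contrast to its opposite signs on the arrays. Within each dye *Pi4kb* was lower in the knockout, although its mean stayed short of a log2 ratio of -1. It was 1 of 4 of the 9 members that were lower in both dyes, against 21.1% of all genes.

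The brighter *Pip5k1a* probe had -0.10 within Cy5 and -0.21 within Cy3, and *Pip4k2c* had -0.10 and -0.08. The brighter *Pip5k1c* probe had -0.46 and -0.22, while the dimmer one had 0.45 and 0.14, so the disagreement between the probes of this gene was also present within each dye. *Pip4k2a* had -0.62 within Cy5 and 0.73 within Cy3, and its SD between the dyes, 0.95, was larger than that between the arrays, 0.66. The brighter *Pip5k1a* probe was the other such member, with SDs of 0.08 between the dyes and 0.03 between the arrays. In all, 5 of 9 members had the same direction in both dyes, against 42.2% of all genes, and 1 counted as higher (0.31% of all genes) and 0 as lower (0.264%). The dyes differed by less than the arrays for 7 of 9 members and for 66.4% of all genes.

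**Figure D4:**
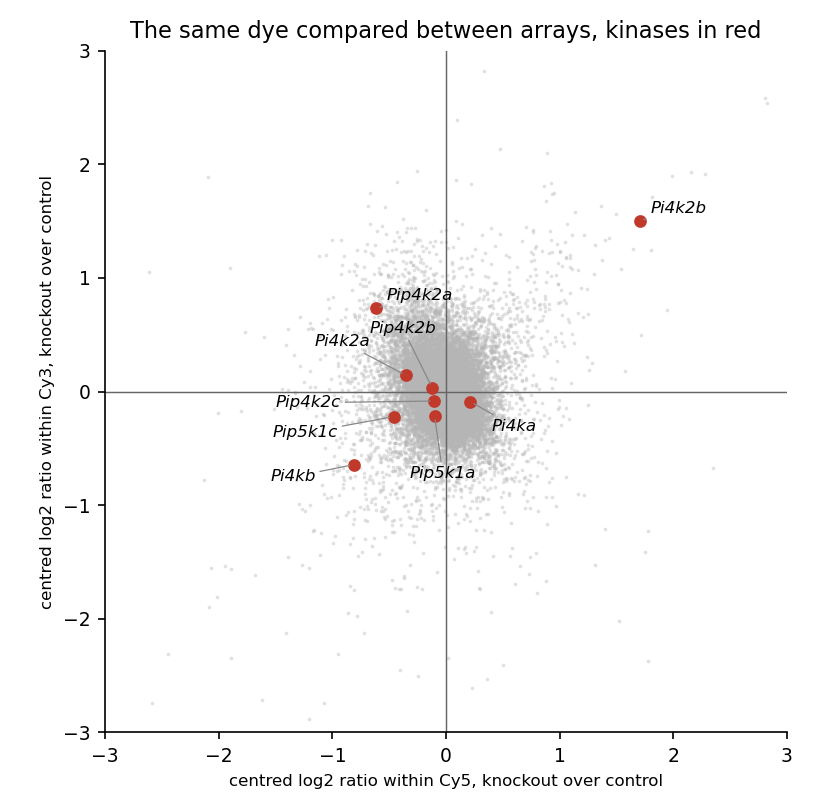
Centred log2 ratio of knockout over control within Cy5 (horizontal) and within Cy3 (vertical) for the 19707 genes tested (grey) and the 9 kinases (red); 12 genes lie beyond the axis limits of -3 and 3. *Pi4k2b* at 1.71 and 1.50 is at the upper right, and *Pi4kb* at -0.81 and -0.64 is at the lower left.

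The enzymes that supply, partner and consume the products of these kinases were described from 7 lists with 114 genes, of which 111 were tested. None counted as higher and 1 as lower, calls that 0.315% and 0.284% of all genes received. The same direction on both arrays was seen for 36.0% of the list genes and 27.7% of all genes, and the medians were -0.03 and -0.0081. The 1 gene was *Trpm6*, a magnesium channel of the distal convoluted tubule that needs PIP2, with log2 ratios of -1.23 and -1.58 and a mean of -1.40 ± 0.24. Its list, the PIP2-regulated kidney channels and scaffolds, had a median of -0.17 over 14 genes.

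Among the 10 genes for phosphatidylinositol synthesis and transfer, the largest means with the same direction on both arrays were those of *Sec14l2* (-0.26 ± 0.20), which encodes a lipid-binding protein, and *Pitpnm3* (-0.19 ± 0.08). Among the 15 partners of the kinases, they were those of *Efr3b* (-0.28 ± 0.22) and *Tmem150a* (0.23 ± 0.30), which hold PI4KA at the plasma membrane. The medians of these lists were -0.05 and -0.04, and 0 genes of either counted as changed.

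Other enzymes convert or cleave these lipids, and 0 of them counted as changed. Of the 14 PI 3-kinase and PIKfyve genes tested, *Pik3c2b* (-0.41 ± 0.15), a class II kinase, and *Pik3r5* (-0.20 ± 0.15), a regulatory subunit, had the largest means with the same direction on both arrays, and of the 26 phosphatases, *Mtmr7* (0.41 ± 0.04) and *Mtmr4* (-0.13 ± 0.06), which remove the 3-phosphate. Of the 11 phospholipase C genes tested, *Plce1* had log2 ratios of -1.10 and -0.08 and *Plch1* of 0.95 and 0.08, so that each was near 2-fold apart on array 1 and had a log2 ratio near 0 on array 2. The probes of *Pik3c2b* (signals of 9.09 to 22.9), *Pik3r5* (20.5 to 25.4) and *Plce1* (17.9 to 38.2) were dim. That of *Pik3c2b* was well above background in only 3 channels. Of the 21 genes that handle IP3 and diacylglycerol, *Dgkb*, a diacylglycerol kinase, had a mean of 0.50 ± 0.37 and *Inpp5a*, which dephosphorylates IP3, of -0.25 ± 0.02.

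**Figure D5:**
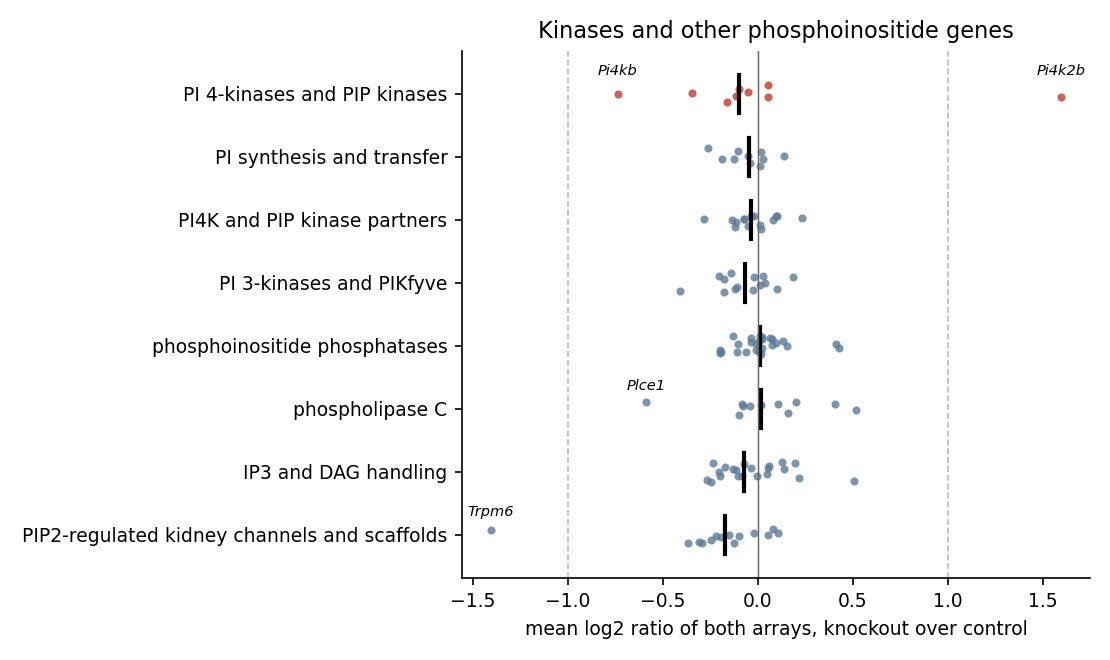
Mean log2 ratio of knockout over control for each tested gene of the family (red) and of the 7 lists of other phosphoinositide genes (blue), with the median of each row as a black bar and dashed lines at -1 and 1. *Pi4k2b* at 1.60 and *Trpm6* at -1.40 lie beyond the dashed lines, and the medians lie between -0.17 and 0.01.

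By Euclidean distance between the pairs of log2 ratios on the arrays, the 3 genes nearest to *Pi4k2b* were *5830444B04Rik* (1.83 and 1.20), *Tal2* (1.74 and 1.31) and *Gm567* (1.71 and 1.28), at distances of 0.12, 0.21 and 0.24. None of these is in a phosphoinositide list. The likeness rests on 2 arrays.

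Markers of other cells were measured in the same RNA. Of 4 distal convoluted tubule markers 3 counted as lower (*Trpm6*, *Pvalb* and *Calb1*), a call that 0.284% of all genes received. The other, *Slc12a3*, had log2 ratios of opposite sign, -0.78 on array 1 and 0.19 on array 2, and did not count as changed. The signals of the 4 summed to 5154 for the knockout and 12133 for the control on array 1, and to 5587 and 8655 on array 2. The 4 urothelial markers, *Upk1a*, *Upk1b*, *Upk2* and *Upk3a*, had mean log2 ratios from 0.36 to 0.87 with the same direction on both arrays, and none counted as changed. Their signals summed to 2200 for the knockout and 1609 for the control on array 1, and to 1870 and 1253 on array 2. The part of these cells in the ratio of *Pi4k2b* was not tested. Of the immune cell markers 4 of 6 were tested and 0 counted as changed, with a median of -0.01. In the other marker lists 0 genes outside the distal convoluted tubule list counted as changed. Their medians were 0.14 for proximal tubule, -0.09 for thick ascending limb, -0.07 for principal cells and -0.21 for intercalated cells. They were -0.32 for podocytes, -0.11 for endothelium, -0.19 for red blood cells and -0.21 for adipose and adrenal tissue.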

How the data were processed

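RNA of knockout and control kidneys was compared on 2 arrays of 2 colours with exchanged dyes. The files that the authors deposited are scanner output. Their software was Agilent Feature Extraction, version 10.7.3.1 per the file headers and 10.5.1.1 per the submitters' processing notes. Each deposited file holds the signal intensity of a spot and of its local background, the difference, and a processed intensity that the software corrected for background, spatial trends and dyes. The authors also deposited log10 ratios, in the scanner files as red over green and in a matrix as knockout over control.

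Processed signals were taken to log2 and turned to knockout over control by the dye labels. Control spots were left out, as were 141 and 175 gene spots of arrays 1 and 2 with a mark for non-uniformity or as a population outlier, spots of a probe were averaged, and the brightest probe stood for a gene name. The ratios are given without a test, since each genotype has 1 replicate. The methods' t-test, which pairs the genotypes on each array, and limma were run as alternatives and measure only the spread between the arrays. Well above background were 62.6% to 68.0% of gene spots per channel, and 0 gene spots were saturated. The number of arrays limits the precision.

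The members and lists were chosen with earlier results of these data known. Named are all members and their probes, list genes counted as changed and otherwise the largest 2 of each list with the same direction on both arrays, *Cnnm2*, and the 3 genes nearest to *Pi4k2b*. Marker genes and the array names described as type I PIP kinases were named after their values were seen. Alternatives were normexp (offset of 50) with loess, background-subtracted signals (floor of 1) with median centring, no background correction with loess, the deposited ratios, marked spots kept, the median over probes, other limits on dim probes, 2-fold on each array, the methods' t-test (threshold of 0.1, fold above 2), Benjamini-Hochberg adjustment, limma 3.58.1, and each array alone. Code was tested on simulated data. Python 3.11.15, numpy 2.4.6, pandas 2.3.3, scipy 1.17.1, matplotlib 3.10.9 and R 4.3.3 were used.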

Additional observations from a re-analysis of the deposited data

How the results depend on the processing

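*Pi4k2b* counted as higher under every normalization, source of the ratio, probe rule and limit on dim probes tried, with a mean log2 ratio between 1.23 (normexp with loess) and 1.60 over 7 settings, and with 1.25 and 1.94 on the single arrays. Its 1 spot was unmarked and well above background in every channel, so the rules on probes, marked spots and dim probes could not change this count. The deposited ratios repeat the processed signals. Other normalizations could differ, and gave 1.23, 1.47 (no background correction with loess) and 1.60 (background-subtracted signals). *Pi4k2b* did not count as higher under the rules that use p-values: the count of members higher was 0 by the methods' t-test, 0 after Benjamini-Hochberg adjustment, and 0 by limma. Of the 19707 genes tested, 486 had an unadjusted p under 0.05 by the methods' t-test and 256 by limma. These p-values measure the spread between 2 arrays, and since the family was selected on these ratios, none is given for a member. The count of members lower ranged from 0 on array 2 alone to 2 on array 1 alone, without array 2, where the 2 were *Pi4kb* and *Pip5k1c*. Of all genes, 2.94% counted as lower on array 1 alone and 4.14% on array 2 alone. The 8 tested members other than *Pi4k2b* each kept the sign of their mean over the 7 settings, but some of these means were small. They reached -0.005 for *Pip4k2b* (normexp with loess) and -0.03 for *Pip5k1a* and *Pip5k1c* (median over probes). The dimmer probes of *Pip5k1a* and *Pip5k1c* changed sign, from 0.10 and 0.29 to -0.03 and -0.05 under normexp with loess. Among these settings, the deposited ratios and marked spots kept give nearly the main values again. On the single arrays only *Pip5k1a* of the 8 kept its sign, and the others had opposite signs.

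In the pathway lists, the count of genes lower was 0 under normexp with loess, after Benjamini-Hochberg adjustment and by limma, so *Trpm6* did not count there. On the single arrays the count ranged from 3 to 4 of 113 genes, with 2 to 3 genes higher. The shares of all genes were 2.94% lower and 5.09% higher on array 1 alone, and 4.14% and 2.70% on array 2 alone. *Cnnm2* had a log2 ratio of -2.34 under normexp with loess, and -2.88 and -2.46 on the single arrays. The cause of these differences was not tested. Over all genes, normexp with loess left 7 higher and 8 lower in place of 62 and 56, no background correction with loess 12 and 12, at least 2-fold on each array 28 and 20, no limit on dim probes 232 and 179, signal in both genotypes 37 and 27, the methods' t-test 22 and 14, array 1 alone 1097 and 633, and array 2 alone 576 and 882, while adjustment and limma each left 0. Dim probes limit what can be said of *Pip5k1c*, *Pip4k2a*, the second *Pip5k1a* probe and *Pip5k1b*, and of the list genes *Pik3c2b*, *Pik3r5* and *Plce1*.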

Other observations

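Another pair of array names has descriptions that refer to type I PIP kinases and was outside the rule for members. Both were chosen with their values in view. The probe named for a transcript described as *Pip5k1a*, on chromosome 3, had log2 ratios of knockout over control of -0.29 and -0.45, a mean of -0.37, and was well above background in all 4 channels. Its mean log2 signal was 11.27, above the 9.15 of the brighter *Pip5k1a* probe of the family. The probe named *LOC100046931*, on chromosome 19 and predicted as similar to a type I PIP kinase, had -0.31 and -0.20, a mean of -0.25. It was also well above background in all 4 channels, with a mean log2 signal of 5.10. Its position is near that of the *Pip5k1b* probe, which was not well above background in any channel. Whether it measures RNA of *Pip5k1b* was not tested. Neither the *LOC100046931* probe nor that of the *Pip5k1a* transcript reached a log2 ratio of -1 on an array. The *Pip5k1a* probes of the family had -0.14 and -0.18 (brighter) and -1.33 and 1.54 (dimmer).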
